A study of Mus musculus with 135 samples.

Results

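The replication histone genes of the mouse are described here by the H3K4me3 mark at their start sites. They were taken as the protein-coding genes of the GENCODE M21 annotation whose names start with Hist1h, Hist2h, Hist3h or Hist4h, which gave 67 of 21951 protein-coding genes. On the mm10 build 54 of them lie in the Hist1 cluster on chromosome 13 (from 21715763 to 23934851), 10 in the Hist2 cluster on chromosome 3 (96219865 to 96270132), 2 in Hist3 on chromosome 11 and 1, Hist4h4, on chromosome 6. By product there were 6 H1, 18 H2A, 18 H2B, 12 H3 and 13 H4 genes. A peak from the deposited peak lists was assigned to a gene when it lay within 1 kb of its transcription start site, and a peak near several members carries 1 value for all of them.

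The study measured H3K4me3 by ChIP-seq of MNase-digested chromatin in order to map loci that control the mark in 2 founder strains and their descendants. C57BL/6J (B6) and DBA/2J (D2) served as founders, and their descendants were BXD recombinant inbred strains, whose genomes are fixed mosaics of both, and the (B6xD2)F1 hybrid. None of the groups carried a treatment or an engineered allele according to the labels. Male germ cells came from a crude isolation at 14 days post-partum from B6 (3 libraries), D2 (3), F1 (4) and 61 BXD strains (69 libraries). The adult tissues were hepatocytes and cardiomyocytes of 8-week-old females, for which each of the strains B6, D2, BXD75 and BXD87 had 3 libraries per tissue. Mouse embryonic stem cells (embryonic day 3.5) comprised 3 lines each of B6 and D2 and 5 lines each of BXD75 and BXD87. Libraries of the same line were summed, so the cell line was the replicate. For the other cell types the labels do not say whether libraries came from separate animals, so p-values measure the spread between libraries, which may be technical.

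Replication-dependent histone genes supply the core and linker histones that package newly made DNA during S phase. They typically have no introns, lie in tandem and as divergent pairs, and their transcripts end in a conserved stem-loop instead of a poly(A) tail. The stem-loop is bound by the stem-loop binding protein (Slbp), while Npat drives transcription at the histone locus body. H3K4me3 marks active and poised promoters and is deposited around the start site.

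The stem-loop is the feature that the members share without having been chosen for it. The pattern searched was a perfect 6-base-pair stem that starts with GG, around a 4-base loop that starts with TT. In the 150 bases after the stop codon, 63 of 67 members held this pattern, against 11 of 21668 other protein-coding genes (0.0508%). The members held the forms below, and the letters of the other genes were not compared with them. The 4 bases of the loop are in capitals.
Common form (41 members of the H1, H2A, H2B and H3 families): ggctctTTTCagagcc
Form with a TTTA loop (9 members, among them Hist1h1t, Hist1h2ba and Hist1h3e): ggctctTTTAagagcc
H4 form (8 members, all H4): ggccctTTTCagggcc
H4 form of Hist1h4i and Hist2h4: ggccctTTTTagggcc
H4 form of Hist1h4b and Hist1h4j: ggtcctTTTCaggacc
Form of Hist2h2ac: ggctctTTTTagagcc
The stem sequence thus separated all 12 H4 genes with a stem-loop from every other family. In Hist1h2an, Hist1h3g, Hist1h4a and Hist2h2be no stem-loop of the searched pattern was found in the window.

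Promoter sequences were taken from RefSeq (GRCm38.p6), where 62 of the 67 members matched. Each promoter of the table spans 250 bases before and 50 after the start. Motifs were searched on both strands and the shares are set beside those of all 32851 promoters of the table. A TATA box (TATAAA) was found in 56.5% of member promoters and 13.6% of all promoters. A CCAAT box (CCAAT) was found in 85.5% of members and 37.4% of all, with every matched H1, H2A, H2B and H3 promoter but only 3 of 12 H4 promoters holding one. The octamer (ATTTGCAT), the site of the Oct family factors, was found in 21% of members and 1.74% of all promoters; it occurred in 7 of 18 H2A and 6 of 16 H2B promoters and in 0 of the 28 others. The GC box (GGGCGG) differed little, 37.1% against 35.7%. GGTCCG, a string of H4 promoters that was chosen after its values were seen, was found in 11 of 12 H4 promoters, in 1 H2B and in 1 H3 promoter, and in 8.25% of all promoters. A match describes letters and is not a bound site.

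The 250 bases upstream of 4 members show these arrangements, 5′ to 3′ in the direction of transcription, with each motif match on either strand in capitals. Hist1h4d (plus strand, chr13:23581318-23581567) carries the H4 string beside a reverse CCAAT box and a TATA box. Hist1h2ac (minus strand, chr13:23683960-23684209) and Hist1h2aa (plus strand, chr13:23934187-23934436) are H2A genes divergent from an H2B gene, and both hold the octamer in reverse (ATGCAAAT), several CCAAT boxes and a TATA box. Hist2h3c2 (minus strand, chr3:96239128-96239377), the member with the most marked difference between founders below, has a GC content of 71.2% with 6 GC boxes and neither a TATA box nor a CCAAT box upstream.
Hist1h4d: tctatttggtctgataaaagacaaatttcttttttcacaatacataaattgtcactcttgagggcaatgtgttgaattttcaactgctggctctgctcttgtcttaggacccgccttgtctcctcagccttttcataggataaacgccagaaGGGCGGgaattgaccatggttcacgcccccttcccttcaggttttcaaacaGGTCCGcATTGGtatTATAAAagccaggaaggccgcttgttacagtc
Hist1h2ac: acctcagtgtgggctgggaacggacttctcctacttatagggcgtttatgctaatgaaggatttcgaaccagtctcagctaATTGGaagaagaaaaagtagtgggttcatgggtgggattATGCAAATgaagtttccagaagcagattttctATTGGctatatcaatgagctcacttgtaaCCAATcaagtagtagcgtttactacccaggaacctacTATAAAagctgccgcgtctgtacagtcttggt
Hist1h2aa: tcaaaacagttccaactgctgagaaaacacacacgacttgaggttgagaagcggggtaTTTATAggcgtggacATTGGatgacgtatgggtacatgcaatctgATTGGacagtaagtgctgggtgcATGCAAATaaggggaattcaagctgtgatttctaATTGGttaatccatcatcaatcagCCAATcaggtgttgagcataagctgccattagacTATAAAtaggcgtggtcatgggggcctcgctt
Hist2h3c2: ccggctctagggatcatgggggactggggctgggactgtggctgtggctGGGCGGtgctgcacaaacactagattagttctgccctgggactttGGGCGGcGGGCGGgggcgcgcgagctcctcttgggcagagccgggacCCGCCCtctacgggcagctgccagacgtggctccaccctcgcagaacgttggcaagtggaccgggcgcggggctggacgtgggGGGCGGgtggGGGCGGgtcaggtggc

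Depth was the total of reads in peaks per library or summed line, in M reads (mega reads). Founder and F1 germ cells had 6.93 to 31.4 M, the BXD panel 1.87 to 18.6 M, stem cell lines 13.8 to 55.3 M and hepatocytes 8.95 to 25.2 M. Cardiomyocytes had 2.62 to 12.8 M, with the D2 libraries shallowest (2.62 to 4.10 M). Promoter peaks of defining markers were listed for 8 of 8 germ cell genes in germ cells, 5 of 8 pluripotency genes in stem cells, 7 of 8 hepatocyte genes in hepatocytes and 6 of 8 cardiomyocyte genes in cardiomyocytes. Sertoli and Leydig cell markers were listed for 5 of 7 genes in germ cells, with summed levels of 248 to 369 CPM (read counts scaled by library size) against 328 to 434 for the germ cell markers. Non-myocyte markers of the heart were listed for 4 of 6 genes in cardiomyocytes, at 344 to 410 CPM against 581 to 956 for cardiomyocyte markers. In hepatocytes non-parenchymal liver markers were listed for 2 of 6 genes, at 13.4 to 83.9 CPM against 1256 to 1762 for hepatocyte markers. The part of these other cells in the results was not tested. In such bulk samples fewer marked cells and less mark per cell cannot be told apart. Germ cell libraries differ from the others in library kit, in antibody lot for the founders and in age, and from the adult tissues in sex. These cannot be told apart from cell type. The sex of the stem cell lines is not given here, and its part was not tested.

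The peak lists covered the clusters only in part. A peak was listed for 22 members in germ cells and 31 in stem cells, and for 29 and 39 in hepatocytes and cardiomyocytes, which is 32.8%, 46.3%, 43.3% and 58.2% of the 67. Of other protein-coding genes 68.8%, 66.7%, 55.9% and 58.6% had one in the same lists, and of the 49 other coding genes inside the cluster spans 20.4%, 20.4%, 22.4% and 12.2%. The members' share was thus below that of other genes in germ cells, stem cells and hepatocytes and near it in cardiomyocytes. In all 4 lists a peak was given for 15 members, and in none for 16. The 16 without any were Hist1h1c, a somatic linker histone, with Hist1h2ab, Hist1h2ah, Hist1h2ao, Hist1h2ap, Hist1h2bb, Hist1h2bk, Hist1h2bm, Hist1h2bq, Hist1h2br, Hist1h3b, Hist1h3c, Hist1h4m, Hist1h4n, Hist2h2bb and Hist2h3b. A missing entry in a deposited list does not show that the mark was absent.

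**Figure D1:**
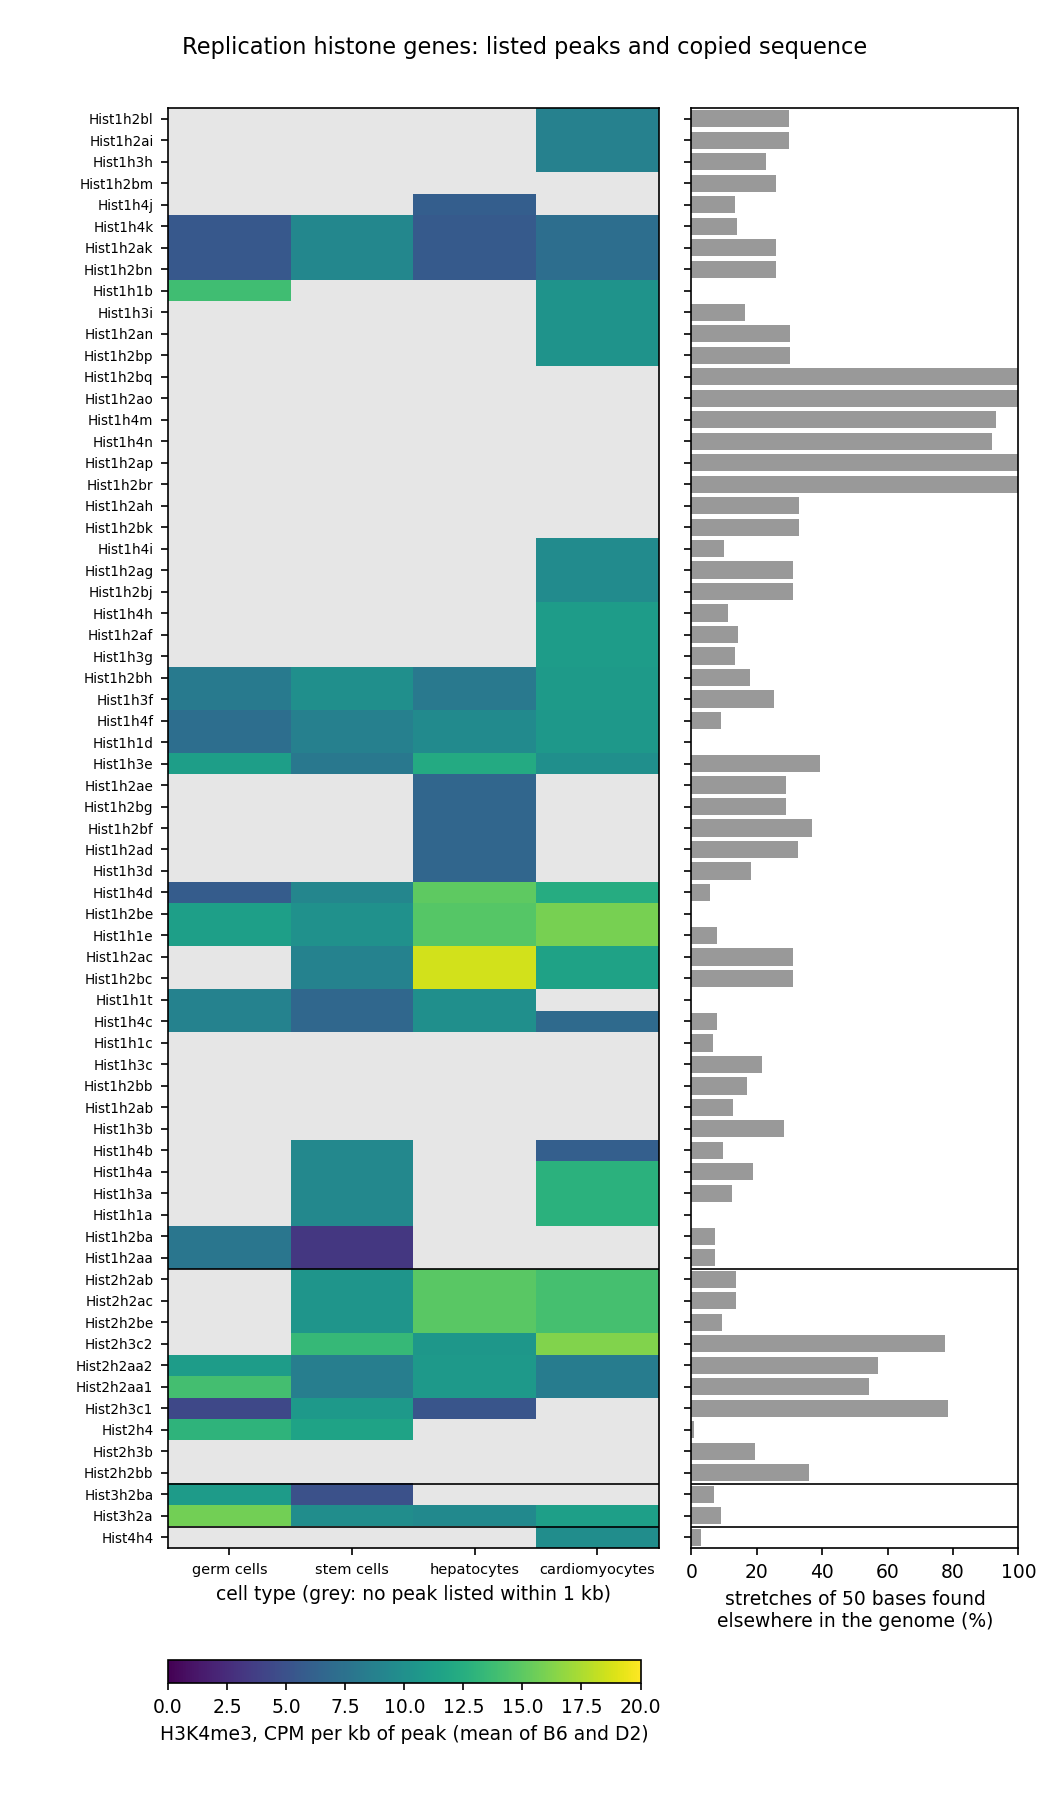
Heat map of the founder mean H3K4me3 level, in CPM per kb of peak, for the 67 genes (rows, in genome order) in the 4 cell types (columns), grey where no peak is listed. Bars at the right give the percent of 50-base stretches within 1 kb of each gene's start that were found elsewhere in the genome. A peak is listed for 39 genes in cardiomyocytes and 22 in germ cells, and the bars of Hist1h2ao, Hist1h2ap, Hist1h2bq and Hist1h2br, which have no listed peak, reach 100%.

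Which members were listed differed by cell type. Only the cardiomyocyte list held peaks for the group Hist1h2bl, Hist1h2ai and Hist1h3h, for Hist1h4i, Hist1h2ag and Hist1h2bj, for Hist1h4h, Hist1h2af and Hist1h3g, for Hist1h3i, Hist1h2an and Hist1h2bp, and for Hist4h4. Only the hepatocyte list held Hist1h4j and a single peak of 7206 bp over 5 members, Hist1h2ae, Hist1h2bg, Hist1h2bf, Hist1h2ad and Hist1h3d. The testis pair Hist1h2ba and Hist1h2aa and the H2B gene Hist3h2ba were listed in germ cells and stem cells and in neither adult tissue. The testis linker histone gene Hist1h1t was listed in germ cells, stem cells and hepatocytes through the peak it shares with Hist1h4c. By family, cardiomyocytes had most listed genes for H2A (11), H2B (8), H3 (7) and H4 (9), while for H1 germ cells, stem cells and cardiomyocytes had 4 each and hepatocytes 3.

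Many members have near-identical copies, and a short read from an identical stretch cannot be placed at a single site. Stretches of 50 bases were taken within 1 kb either side of each gene's annotated start. Of these a median of 19.3% per member occurred elsewhere in the genome, against 1.23% for the other coding genes of the spans. The share was 100% for Hist1h2ao, Hist1h2ap, Hist1h2bq and Hist1h2br, 93% for Hist1h4m and 92% for Hist1h4n, all with no listed peak. It was 78.5% for Hist2h3c1, 77.6% for Hist2h3c2, 57.2% for Hist2h2aa2 and 54.4% for Hist2h2aa1, which were listed. At these 4 genes no listed peak reached the start site: the nearest edge lay 512 to 554 bp away at the Hist2h3c pair and 65 to 174 bp away at the Hist2h2aa pair. The median share was 32.8% for members in no list, 29.0% in 1, 7.07% in 2, 22.3% in 3 and 13.9% in all 4. The sources used here do not say how the authors treated reads with several placements, and its part in the listing was not tested.

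Peaks at members had a somewhat larger median width than other promoter peaks and often lay near several gene starts. Their median width was 3480 bp for germ cells, 4704.5 for stem cells, 6516 for hepatocytes and 5405 for cardiomyocytes, against 3020, 3651.5, 6017 and 4228 bp for other promoter peaks. In the same order 33.9%, 32.9%, 43.1% and 34.6% of other promoter peaks were at least as wide as the member median. More than 1 protein-coding gene start lay within 1 kb of 7 of 16, 11 of 18, 10 of 15 and 14 of 19 member peaks (43.8%, 61.1%, 66.7% and 73.7%), against 9.43% to 13.8% of other promoter peaks. Genes outside the families bear on some values, since Hist3h2a shares its peak with Trim17, the group Hist2h2ab, Hist2h2ac and Hist2h2be with Bola1, and Hist4h4 with H2afj. Hist1h2be is annotated from 23583670 to 23621124 and shares the peak of Hist1h1e only through its annotated start. Its stem-loop, at 23585531 to 23585546, lies far from that peak. In stem cells and hepatocytes it lies inside the peak given for Hist1h4d. By their identifiers 7 of the 19 cardiomyocyte member peaks were found on the reference genome alone, among them that of the Hist1h4k group, and all other member peaks on both genomes. Levels of different genes are therefore compared only as CPM per kb of peak.

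In germ cells the median member peak had 10.3 CPM per kb, against 11.4 for other promoter peaks, and 4 of 16 lay above that median. The highest were Hist3h2a with 15.7 (13.1 to 17.6 over the 6 founder libraries), Hist2h2aa1 with 14.0 (11.2 to 18.6), the linker gene Hist1h1b with 13.8 (11.7 to 18.1), Hist2h4 with 13 (10.6 to 14.6) and the pair Hist1h1e and Hist1h2be with 11.3 (9.21 to 15.8). These ranges overlap, so neighbours in this order did not differ beyond their spread. The lowest were Hist2h3c1 with 4.32 (3.02 to 5.70), the group Hist1h4k, Hist1h2ak and Hist1h2bn with 5.51, Hist1h4d with 5.80 and the pair Hist1h4f and Hist1h1d with 7.21. That shared peak lies 467 bp from the start of Hist1h1d. A further peak of 3818 bp over the Hist1h1d gene, 715 bp from its start, is not in this order. In the BXD panel its median was 40.2 CPM, against 23.9 at the shared peak. The genes known for their use in the testis were not at the top: Hist1h2ba and Hist1h2aa, whose products replace canonical histones in developing sperm, had 7.83 (6.44 to 9.03). Hist1h1t, which shares its peak with Hist1h4c, had 8.89 (7.43 to 10.7). The H2B gene Hist3h2ba had 11 (9.06 to 13.4).

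Stem cells were the cell type in which members stood above other promoters. Their median was 9.22 CPM per kb against 7.21, and 14 of 18 lay above the other promoters' median. The highest was Hist2h3c2 with 13.4 (8.79 to 19.5), above 99.7% of other promoter peaks, followed by Hist2h4 with 11.6 (9.72 to 14.3), Hist2h3c1 with 10.8 (8.23 to 14.6) and the group Hist2h2ab, Hist2h2ac and Hist2h2be with 10.4 (8.90 to 13). The Hist2 cluster thus held the 4 highest peaks, with overlapping ranges. The linker genes Hist1h1e (10.1), Hist1h1a (9.33) and Hist1h1d (8.72) and the H2B gene Hist1h2bc (8.83) lay in the middle. Of the peaks nearest each gene's start that of the testis pair Hist1h2ba and Hist1h2aa was lowest, at 3.26 (2.70 to 3.72). Next were the H2B gene Hist3h2ba at 4.97 (3.17 to 5.84) and the peak shared by the testis gene Hist1h1t and Hist1h4c at 6.66 (5.24 to 9.51). A further peak farther from the start of Hist1h3e was also low, with a mean of 1.63 in B6 and 7.53 in D2.

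In hepatocytes the members' median was 9.93 CPM per kb against 10.6, with 7 of 15 above. The divergent pair Hist1h2ac and Hist1h2bc stood highest with 18.6 (17.6 to 19.8), above 97.9% of other promoter peaks and above the range of every other member. Next were Hist1h4d with 15 (13.7 to 16.6), the Hist2h2ab, Hist2h2ac and Hist2h2be group with 14.9 and Hist1h1e with Hist1h2be at 14.7, which overlapped each other. Lowest were Hist2h3c1 at 5.25, the Hist1h4k group at 5.66, Hist1h4j at 5.98 and the 5-gene peak of Hist1h2ae at 6.61. Hist3h2a had 9.50, Hist1h1d 9.55, Hist1h1t 9.93 and Hist2h2aa1 10.8.

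In cardiomyocytes the median was 10.6 CPM per kb against 11.1, with 7 of 19 above. Hist2h3c2 led with 16.2, but its libraries spread from 4.73 to 27.4 because the founders differed, as described below. Hist1h1e with Hist1h2be followed at 15.9 (14.7 to 18.3), the Hist2h2ab group at 14.1 (12.4 to 16) and Hist1h4a, Hist1h3a and Hist1h1a at 12.8 (11.4 to 14.2). Lowest were Hist1h4b at 6.04, Hist1h4c at 6.90, the Hist1h4k group at 7.23, the Hist2h2aa pair at 8.42 and the Hist1h2bl group at 8.82. Among the others Hist1h2bc had 11.5, Hist3h2a 11.3, Hist1h1d 10.6, Hist1h1b 10.3, Hist4h4 9.78 and Hist1h4i 9.69. By family, H1 peaks had the highest median in cardiomyocytes (11.7) and H4 genes the lowest (9.78), with wide overlap.

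**Figure D2:**
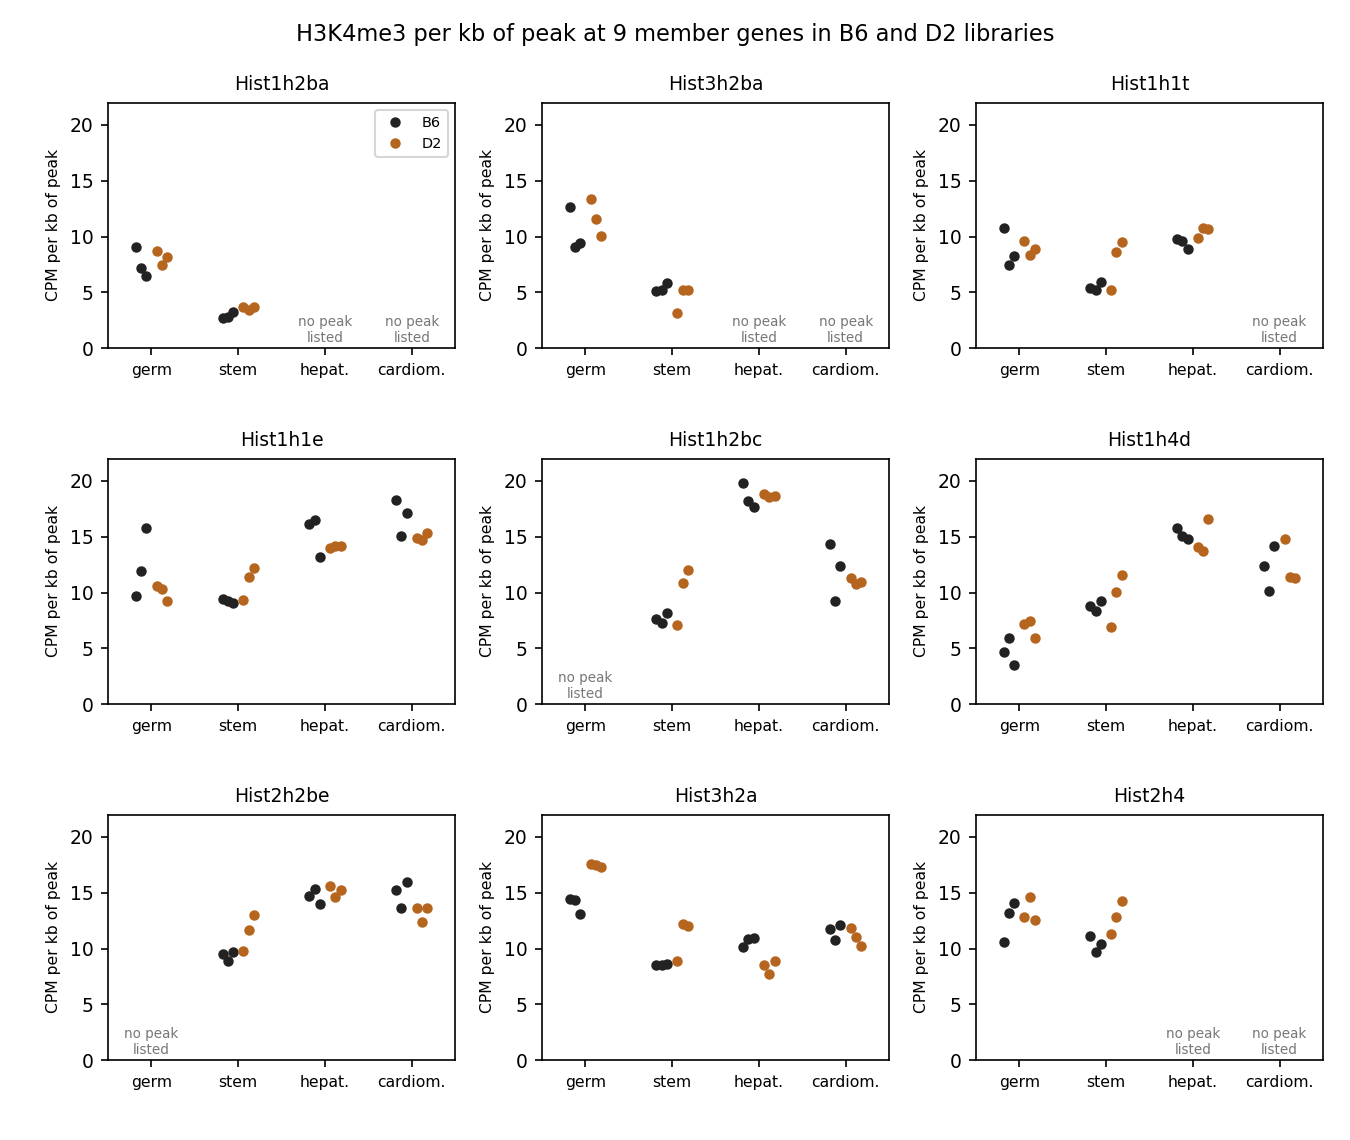
H3K4me3 level in CPM per kb of peak in each founder library (points, B6 and D2) for 9 genes in the 4 cell types, with no points where no peak is listed. Hist1h2ba lies between 6.44 and 9.03 in germ cells and between 2.70 and 3.72 in stem cells, and Hist1h2bc is highest in hepatocytes, at 17.6 to 19.8.

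To compare cell types, peaks of each pair of lists were matched 1 to 1 at 50% reciprocal overlap and tested with edgeR's quasi-likelihood test on the counts of B6 and D2 with strain as a covariate. A peak was called when its Benjamini-Hochberg adjusted p over all matched peaks was under 0.05. CPM in these comparisons are relative to the matched peaks of the pair, so they are higher than those within a cell type, and the count difference includes any difference in peak width. The difference of CPM per kb is therefore given as well. Most matched peaks of any kind were called in every pair, so a call by itself does not set members apart.

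Between stem cells and hepatocytes 10 of 12 matched member peaks were called, 5 higher and 5 lower in stem cells, where 79.3% of all matched peaks were called (40.4% higher and 38.9% lower). The member median log2 difference was 0.01 against -0.08 for promoter peaks. Hist2h3c1, an H3 gene, rose most: stem cells had 71.2 to 134 CPM (median 90.7) and hepatocytes 22.1 to 29.3 (median 24.1), without overlap. Its log2 difference was 1.94 ± 0.13 (SE, n = 6 and 6; edgeR's quasi-likelihood test, Benjamini-Hochberg adjusted p = 3.19e-09) and 1.59 per kb. Hist2h3c2 was higher by 1.63 (1.05 per kb), the Hist1h4k group by 1.59 (1.37 per kb), Hist3h2a by 0.38 (0.62 per kb) and the Hist2h2aa pair by 0.25 (0.23 per kb). In the other direction the pair Hist1h2ac and Hist1h2bc had 149 to 239 CPM (median 169) in stem cells and 297 to 346 (median 319) in hepatocytes, again without overlap. Its log2 difference was -0.78 ± 0.10 (adjusted p = 2.99e-06, same test) and -0.51 per kb. Hist1h4d was lower by count (-0.30) and per kb (-0.14). The other 3 were lower in counts only, with per kb differences near 0: the Hist2h2ab group (-0.43, per kb 0.05), Hist1h1e with Hist1h2be (-0.45, per kb 0.03) and Hist1h1t with Hist1h4c (-0.36, per kb -0.02), whose hepatocyte peaks were wider. With B6 alone the calls of Hist3h2a (0.0079, adjusted p = 0.919) and of the Hist2h2aa pair (0.11, adjusted p = 0.19) were lost in edgeR's quasi-likelihood test, and with D2 alone those of Hist1h4d (-0.22) and Hist1h1t with Hist1h4c (-0.18). With BXD75 and BXD87 in place of the founders Hist1h4d (-0.072) and Hist1h1e with Hist1h2be (-0.048) lost the call and Hist1h1t with Hist1h4c turned to 0.061.

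Between stem cells and cardiomyocytes 8 of 12 were called, 7 higher and 1 lower, where 71.2% of all peaks were called (37.0% higher and 34.2% lower). The member median was 0.50 against 0.05 for promoter peaks. The Hist1h4k group had 236 to 413 CPM (median 298) in stem cells and 77.5 to 116 (median 101) in cardiomyocytes, without overlap, a log2 difference of 1.65 ± 0.15 (adjusted p = 1.41e-07, edgeR's quasi-likelihood test with Benjamini-Hochberg adjustment) and 0.84 per kb. Hist1h1a with Hist1h3a and Hist1h4a was higher by 0.95 in counts but by 0.03 per kb, since its stem cell peak was 10755 bp wide and the cardiomyocyte peak 5678. Hist1h2ac with Hist1h2bc (0.75, per kb 0.09), Hist1h2bh with Hist1h3f (0.62, per kb 0.36), Hist1h1d with Hist1h4f (0.57, per kb 0.21), Hist1h4c (0.51, per kb 0.40) and the Hist2h2aa pair (0.48, per kb 0.49) were higher as well. Hist3h2a was lower in counts (-0.58) and higher per kb (0.28), with a cardiomyocyte peak of 8470 bp against 4669. Leaving out 1 library at a time ended the call of Hist1h4c and of the Hist2h2aa pair in 6 and 5 cases, with log2 differences of 0.40 to 0.51 and of 0.35 to 0.42. With B6 alone these fell short of the threshold too (0.072 and 0.065), as did Hist1h2bh with Hist1h3f (0.37), and with BXD75 and BXD87 in place of the founders Hist1h4c (0.19) and Hist1h1d with Hist1h4f (0.15) lost the call and the Hist2h2aa pair turned to -0.072.

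Between stem cells and germ cells 7 of 9 were called, 6 higher and 1 lower, where 69.9% of all peaks were called (35.7% higher and 34.2% lower). The member median was 0.52 against -0.12 for promoter peaks. Hist2h3c1 had 57.8 to 103 CPM (median 69.1) in stem cells and 7.83 to 15.7 (median 12.4) in germ cells, without overlap, a log2 difference of 2.69 ± 0.13 (adjusted p = 1.72e-12, edgeR's quasi-likelihood test with Benjamini-Hochberg adjustment) and 1.78 per kb. The Hist1h4k group (1.71, per kb 1.19), Hist1h2bh with Hist1h3f (1.23, per kb 0.72), Hist2h4 (0.81, per kb 0.28) and Hist1h1e with Hist1h2be (0.52, per kb 0.30) were higher too. Hist1h3e was higher in counts (0.38) and not per kb (-0.04). The single member lower in stem cells was Hist3h2ba, with 18.7 to 36.6 CPM (median 31.1) against 56.8 to 98.8 (median 68.9) in germ cells. Its groups did not overlap, and the log2 difference was -1.31 ± 0.15 (adjusted p = 5.45e-07, same test) and -0.71 per kb. The testis pair Hist1h2ba and Hist1h2aa had peaks of 6732 bp in germ cells and 2126 bp in stem cells that did not meet the overlap, so it was not tested. With B6 alone the calls of Hist1h1e with Hist1h2be (0.20) and Hist1h3e (0.21) were lost.

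Germ cells were set against the adult tissues at 6 matched member peaks each. Against hepatocytes 4 were called, 1 higher and 3 lower, where 77.1% of all peaks were called (38.7% higher and 38.4% lower), and the member median was -0.28 against 0.00. Hist1h1e with Hist1h2be had 114 to 186 CPM (median 133) in germ cells and 259 to 325 (median 281) in hepatocytes, a log2 difference of -1.09 ± 0.08 (adjusted p = 8.54e-10, edgeR's quasi-likelihood test with Benjamini-Hochberg adjustment) and -0.38 per kb. Hist2h3c1 (-0.83, per kb -0.28) and Hist1h3e (-0.35, per kb -0.11) were lower and Hist3h2a higher (0.44, per kb 0.75), and the last pair of calls was lost with B6 alone (-0.23 and 0.12). Against cardiomyocytes 4 were called, all lower, where 71.5% of all peaks were called (37.1% lower), and the median was -0.69 against 0.03. They were the peak over the Hist1h1d gene (-1.14, per kb -0.29), Hist1h1e with Hist1h2be (-0.82, per kb -0.64), Hist1h2bh with Hist1h3f (-0.78, per kb -0.53) and Hist3h2a (-0.61), whose sign turned per kb (0.33).

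The adult tissues differed at 6 of 10 matched member peaks, 5 higher and 1 lower in hepatocytes, where 78.9% of all peaks were called (39.6% higher and 39.3% lower). The member median was 0.16 against 0.07. Hist1h2ac with Hist1h2bc had 283 to 329 CPM (median 309) in hepatocytes and 92 to 141 (median 111) in cardiomyocytes, without overlap, a log2 difference of 1.41 ± 0.08 (adjusted p = 7.06e-10, edgeR's quasi-likelihood test with Benjamini-Hochberg adjustment) and 0.49 per kb. Hist3h2a had 83.3 to 114 CPM (median 101) in hepatocytes against 183 to 231 (median 213), also without overlap, a log2 difference of -1.07 ± 0.07 (adjusted p = 9.86e-10, same test) and -0.45 per kb. Hist1h4d was higher by 0.37 (per kb 0.08). The remaining 3 were higher in counts and lower per kb: Hist1h1d with Hist1h4f (0.57, per kb -0.35), the Hist2h2ab group (0.35, per kb -0.12) and Hist1h1e with Hist1h2be (0.21, per kb -0.32). Hist1h2ac with Hist1h2bc and Hist3h2a thus held their direction on both scales. Hist1h4d and Hist1h1e with Hist1h2be turned to -0.15 and -0.27 when BXD75 and BXD87 took the place of the founders, and Hist1h1d with Hist1h4f lost its call (0.073, adjusted p = 0.634 in edgeR's quasi-likelihood test). With B6 alone the call of Hist1h1e with Hist1h2be was lost (0.16).

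Within cell types the founders were compared with all strains of the cell type in 1 edgeR fit. The member with the largest founder difference in both adult tissues was Hist2h3c2, 1 of several genes for the same H3 protein. In hepatocytes B6 had 8.59, 9.72 and 12 CPM and D2 37.5, 37.3 and 33.1. The groups were far apart. BXD75 (30.4, 30.8 and 32.1) and BXD87 (31.0, 30.0 and 26.3) lay between them, closer to D2 and without overlap with either. Over all members these strains lay lower than the founders in hepatocytes, by a median log2 difference of -0.36. The log2 difference of B6 minus D2 was -1.81 ± 0.13 (SE, n = 3 and 3; edgeR's quasi-likelihood test, Benjamini-Hochberg adjusted p = 1.5e-08). In cardiomyocytes B6 had 8.64, 6.86 and 8.35 CPM and D2 37.8, 39.4 and 39.7, with BXD75 and BXD87 at 32.4 to 42.4, so again only B6 was low. There BXD75 and BXD87 lay higher than the founders over all members, by a median of 0.31. The log2 difference of B6 minus D2 was -2.28 ± 0.15 (adjusted p = 6.27e-07, same test).

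In stem cells the same gene had 30.3, 28.5 and 29.1 CPM in the B6 lines and 50.6, 59.3 and 63.1 in the D2 lines. All 13 lines that were not B6, these D2 lines included, lay at 45.9 to 63.1, without overlap with B6. The difference of B6 minus D2 was -0.97 ± 0.11 (SE, n = 3 and 3; edgeR's quasi-likelihood test, Benjamini-Hochberg adjusted p = 3.4e-07). The peak lies at chr3:96235370-96238607 in stem cells, chr3:96236432-96238608 in hepatocytes and chr3:96237166-96238615 in cardiomyocytes, and ends 520, 519 and 512 bp short of the start site on the gene side. Germ cells had no listed peak for it. Of the 50-base stretches within 1 kb either side of its start site 77.6% occur elsewhere. The peak lies largely outside that window, so this share does not describe the whole peak. How copied sequence moves with the founder genome was not tested. No value of BXD75 or BXD87 came near B6 in any of the 3 cell types. Which founder's copy these strains carry there was not analysed here.

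**Figure D3:**
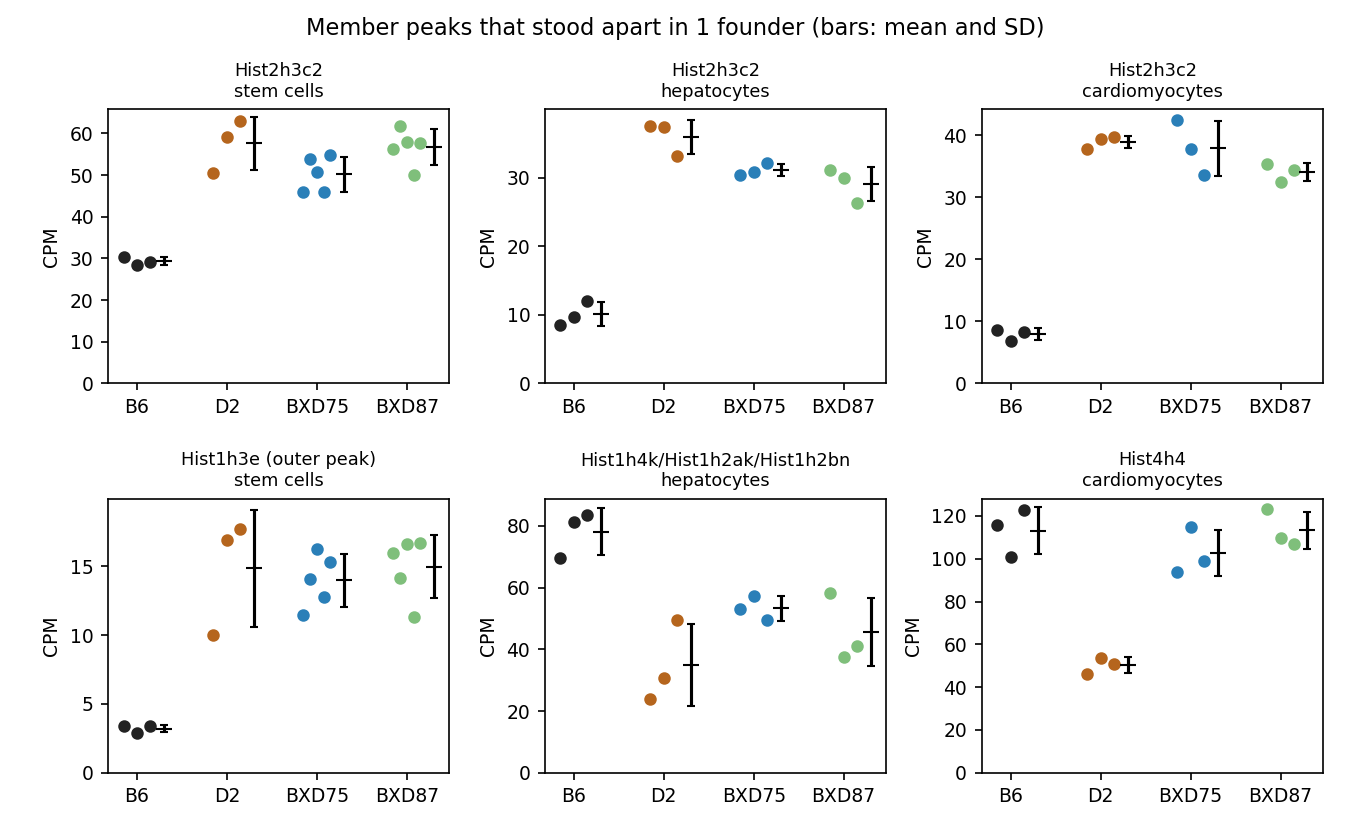
H3K4me3 in CPM for each library or stem cell line (points) of B6, D2, BXD75 and BXD87 with the group mean and SD, in 6 panels, 3 of them for Hist2h3c2. At Hist2h3c2 the B6 points lie below all others in hepatocytes (8.59 to 12), cardiomyocytes (6.86 to 8.64) and stem cells (28.5 to 30.3), and at Hist4h4 in cardiomyocytes the D2 points lie lowest (46.3 to 53.7).

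In hepatocytes 4 of 15 member peaks were called between the founders, where 15.8% of all peaks and 7.37% of promoter peaks were (7.36% of all peaks higher in B6 and 8.41% lower). Of the 4, 3 were higher and 1 lower. The member median was -0.01 against 0.02. The group Hist1h4k, Hist1h2ak and Hist1h2bn, for H4, H2A and H2B, had 69.7, 81.2 and 83.7 CPM in B6 and 24.1, 30.8 and 49.6 in D2. These groups did not overlap, and the log2 difference was 1.16 ± 0.22 (SE, n = 3 and 3; edgeR's quasi-likelihood test, Benjamini-Hochberg adjusted p = 0.00183). Hist1h4j, an H4 gene next to this group, had 28.1, 28.4 and 32.9 CPM in B6 and 14.2, 15.4 and 25.3 in D2. Again the groups did not overlap, with a difference of 0.70 ± 0.19 (adjusted p = 0.0148, same test). Hist3h2a had 55.7, 59.8 and 60.5 against 46.8, 42.5 and 48.8 CPM, without overlap, a difference of 0.35 ± 0.10 (adjusted p = 0.0171, same test). The call of Hist1h4j was lost without B6 replicate 3, D2 replicate 1 or D2 replicate 2 (0.56 to 0.62), and that of Hist3h2a without B6 replicate 2, B6 replicate 3 or D2 replicate 2 (0.30 to 0.34). BXD75 and BXD87 lay lower than the founders over the members as a whole, with summed CPM of 709 to 884 against 986 to 1119. The median log2 difference was -0.36, against -0.29 at other promoter peaks, so their levels are not set beside these 3 peaks.

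In cardiomyocytes 3 of 19 were called between the founders, 2 higher and 1 lower in B6, where 6.51% of all peaks and 8.66% of promoter peaks were (4.06% of all peaks higher and 2.45% lower). The median was 0.12 against -0.05. Beside Hist2h3c2 they were Hist4h4 and the Hist1h2bl group. Hist4h4, the H4 gene on chromosome 6 whose peak also covers the H2A variant gene H2afj (chr6:136802638-136810988), had 116, 101 and 123 CPM in B6 and 46.3, 53.7 and 50.6 in D2. The groups did not overlap, and the log2 difference was 1.17 ± 0.11 (SE, n = 3 and 3; edgeR's quasi-likelihood test, Benjamini-Hochberg adjusted p = 1.76e-05). Hist1h2bl, Hist1h2ai and Hist1h3h shared 57.7, 52.7 and 53.7 CPM in B6 and 37.1, 42.5 and 42.3 in D2. The groups did not overlap, with a difference of 0.43 ± 0.10 (adjusted p = 0.0226, same test). This call was lost without B6 replicate 1 or 3 or D2 replicate 1 or 2 (0.38 to 0.47), and with the replicate block (0.43, adjusted p = 0.0582 in edgeR's quasi-likelihood test). The 4-gene peak of Hist1h1b was also lower in every D2 library (92.6 to 101) than in the others (104 to 142), but its difference of 0.31 had an adjusted p of 0.103 in edgeR's quasi-likelihood test. BXD75 and BXD87 lay higher than the founders over the members in this cell type, by a median log2 difference of 0.31 against 0.0046 at other promoter peaks. The D2 libraries were the shallowest of this cell type, and the part of depth in these values was not tested.

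In stem cells 9 of 18 member peaks were called between the founders, and all 9 were lower in B6, where 15.8% of all peaks were called lower, 30.6% in either direction, and 12.5% of promoter peaks in either direction. The members' median log2 difference was -0.29 against 0.02 for promoter peaks, and 17 of 18 were below 0 against 46.5% of promoter peaks. The largest was a peak beside the H3 gene Hist1h3e (chr13:23559786-23561759), 610 bp from its start site, with 3.37, 2.89 and 3.39 CPM in B6 and 9.98, 16.9 and 17.7 in D2. All 13 lines that were not B6, these D2 lines included, had 9.98 to 17.7, without overlap with B6. The difference of B6 minus D2 was -2.20 ± 0.21 (SE, n = 3 and 3; edgeR's quasi-likelihood test, Benjamini-Hochberg adjusted p = 5.87e-08). The peak over the start of Hist1h3e itself had 16.2, 15.5 and 18.3 CPM in B6 and 14.5, 20.4 and 24.0 in D2, with overlap and no call. Hist2h3c1 had 25.4, 24.8 and 28.2 against 29.9, 43.6 and 43.9 CPM, without overlap (-0.58 ± 0.13, adjusted p = 0.00162, same test).

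The remaining called stem cell peaks had smaller differences. Those of the linker gene Hist1h1t with Hist1h4c (-0.49), Hist1h2ac with Hist1h2bc (-0.38), Hist3h2a (-0.37), Hist2h4 (-0.29), the Hist2h2ab group (-0.29) and the Hist2h2aa pair (-0.29) had adjusted p-values from 0.0197 to 0.0498 in edgeR's quasi-likelihood test with Benjamini-Hochberg adjustment. D2 line 173 lay apart from the other D2 lines over the members: its summed CPM over the 18 peaks was 727, against 1028 and 1116 in lines 203 and 216 and 725 to 805 in B6. Its sum over promoter peaks of S phase genes was 1598, below the other D2 lines (1745 and 2031) and B6 (1800 to 1875). Without line 173 the number of called members was 15. It was 3 or 4 without any other founder line (B6 139, 146 or 49, D2 203 or 216). The differences of Hist1h3e's outer peak and of Hist2h3c2 were called in each of these cases.

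**Figure D4:**
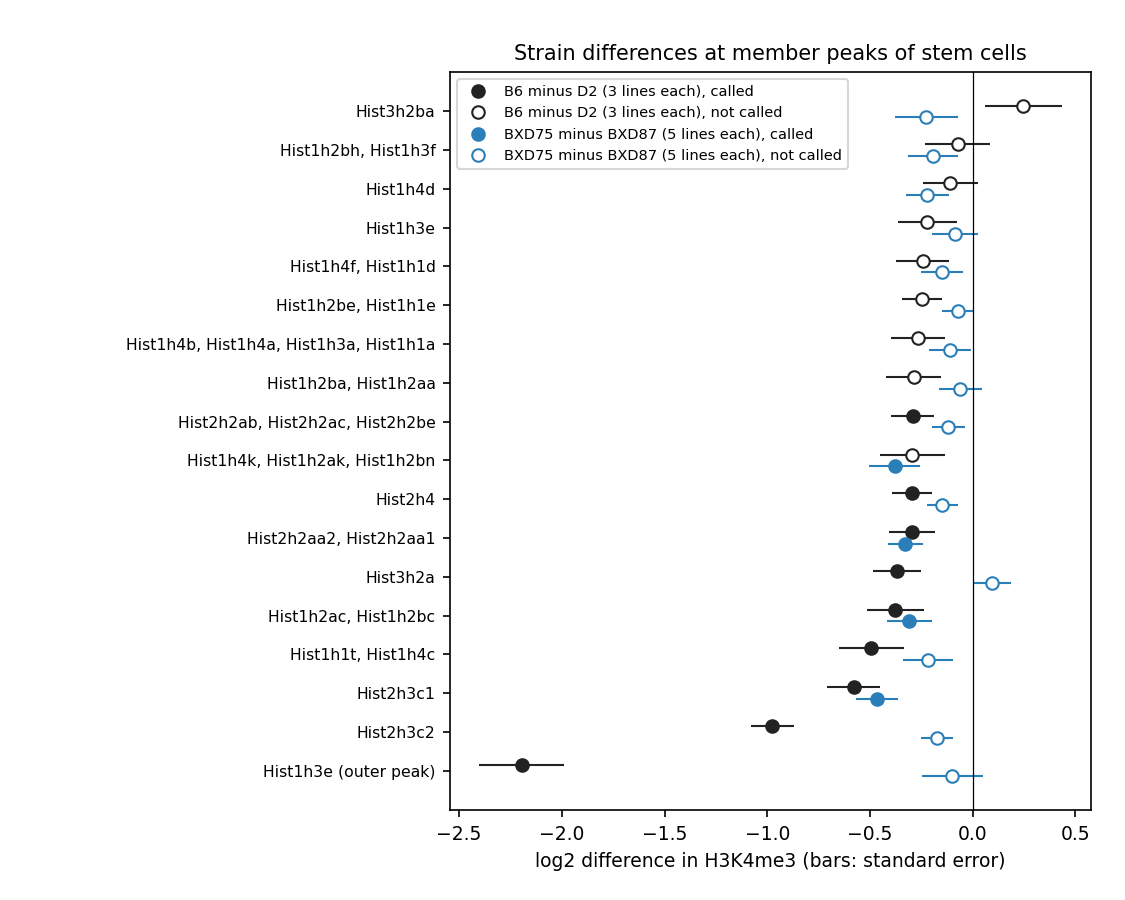
Log2 difference with its SE at the 18 member peaks in stem cells for B6 minus D2 and for BXD75 minus BXD87, with filled points for called peaks. In each comparison 17 of 18 points lie below 0, and 9 and 4 are filled.

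BXD75 and BXD87 differed in stem cells at 4 of 18 member peaks, all lower in BXD75, where 11.8% of all peaks were called lower, 21.8% in either direction and 11.7% of promoter peaks. The median was -0.16 against 0.07 for promoter peaks, and 17 of 18 were below 0 against 31.6% of promoter peaks. Hist2h3c1 had 27.5, 30.3, 31.0, 28.1 and 33.5 CPM in the BXD75 lines and 44.8, 39.9, 44.6, 35.6 and 42.6 in the BXD87 lines. The groups did not overlap, and the log2 difference was -0.47 ± 0.10 (SE, n = 5 and 5; edgeR's quasi-likelihood test, Benjamini-Hochberg adjusted p = 0.0018). The Hist2h2aa pair had 40.2 to 44.8 against 48.7 to 56.1 CPM (-0.33, adjusted p = 0.00886, same test). The Hist1h4k group had 84.1 to 96.4 against 103 to 135 (-0.38, adjusted p = 0.0333) and Hist1h2ac with Hist1h2bc 49.5 to 57.5 against 59.4 to 73.9 (-0.31, adjusted p = 0.0467), in the same test. Neither pair of groups overlapped. Without BXD75 line A or F or BXD87 line C, I or X only the first 2 of these were called, and the call of Hist1h2ac with Hist1h2bc was lost without 8 of the 10 lines. Over the 18 peaks the summed CPM was 780 to 868 in BXD75 and 846 to 1027 in BXD87.

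In the adult tissues no member was called between BXD75 and BXD87. In hepatocytes 0 of 15 were called by edgeR's quasi-likelihood test and 0 by DESeq2, where edgeR called 4.89% of all peaks, and 1 member had an unadjusted p under 0.05. The smallest p-values belonged to Hist3h2a (0.26, adjusted p = 0.188), Hist1h4j (0.21) and the Hist1h4k group (0.22). In cardiomyocytes 0 of 19 were called by either tool, where edgeR called 0.529% of all peaks, and 1 member had an unadjusted p under 0.05. The smallest belonged to the Hist2h2aa pair (-0.68, adjusted p = 0.259), Hist1h4h with Hist1h2af and Hist1h3g (-0.41) and Hist1h3e (-0.34). Replicates of the same strain spread widely there, as at the Hist2h2aa pair with 26.5, 72.5 and 57.6 CPM in BXD75 and 94.3, 65.9 and 89.96 in BXD87.

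Germ cells of the founders showed 0 of 16 called members with edgeR's quasi-likelihood test, where 17.3% of all peaks and 4.40% of promoter peaks were called. DESeq2 called 1. Under an unadjusted p of 0.05 lay 4 of 16, against 29.6% of all peaks, and the median was -0.11 against -0.07. Hist2h3c1 had 5.87, 4.84 and 5.79 CPM in B6 and 9.14, 8.32 and 7.64 in D2. The groups did not overlap, and the difference of -0.63 ± 0.22 had an adjusted p of 0.0593 (edgeR's quasi-likelihood test with Benjamini-Hochberg adjustment). Hist1h4d had 10.3, 13.1 and 7.76 CPM in B6 and 15.7, 16.4 and 13.1 in D2, so that the closest libraries met at 13.1 (-0.53 ± 0.20, adjusted p = 0.0731, same test). Hist3h2a had 63.8, 63.5 and 57.8 against 77.8, 77.5 and 76.5 (-0.33 ± 0.13, adjusted p = 0.0846, same test), without overlap. DESeq2 called Hist3h2a (adjusted p = 0.0298). Of the B6 libraries, leaving out the column B62 gave 3 called members and leaving out B63 gave 1, Hist1h4d with -0.73.

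The F1 was set against the mean of its parents in germ cells. By edgeR's quasi-likelihood test 0 of 16 members were called, where 1.59% of all peaks were, and DESeq2 called 0 as well. An unadjusted p under 0.05 was reached by 1 member, and 14 of 16 differences were below 0, with a median of -0.11 against 0.02 for promoter peaks. The smallest p belonged to Hist1h3e, with 15.2, 10.9, 16.8 and 16.2 CPM in F1 against 16.6 to 21.3 in both parents, which overlapped narrowly (-0.35, adjusted p = 0.517). Hist1h1b (-0.22) and Hist1h2bh with Hist1h3f (-0.19) followed. Hist1h2ba with Hist1h2aa had 53.9 to 64.5 CPM in F1 and 43.4 to 60.8 in the parents, with overlap.

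The founder difference depended on cell type at 3 of the 5 member peaks matched in all 4 lists, where 12.9% of all such peaks were called in the F test of strain by tissue interaction terms. CPM here are relative to those peaks. For the Hist1h4k group the means of B6 and D2 were 169 and 183 in germ cells, 557 and 694 in stem cells, 278 and 124 in hepatocytes and 218 and 201 in cardiomyocytes. Only in hepatocytes did B6 and D2 not overlap, and the adjusted p of the dependence was 0.00194 (edgeR's quasi-likelihood test with Benjamini-Hochberg adjustment). For Hist3h2a the log2 ratio of means of B6 over D2 was -0.24, -0.41, 0.34 and 0.13 in the same order (adjusted p = 0.00279, same test). For Hist1h1e with Hist1h2be it was 0.36, -0.28, 0.11 and 0.24 (adjusted p = 0.0144, same test). The terms were not called at Hist1h4c (adjusted p = 0.185) and Hist1h3e (0.573). Both Hist2h3c genes and Hist4h4 had no peak in at least 1 list and were not tested.

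The BXD panel gives the spread of the germ cell mark over 60 strains (BXD99, which had libraries of both antibody lots, was left out). The divergent testis pair Hist1h2ba and Hist1h2aa ranged from 38.6 to 79.7 CPM with a median of 58.7, Hist3h2a from 55.8 to 83.4 (65.3), the Hist1h4k group from 34.6 to 71.1 (51.2) and Hist2h3c1 from 5.06 to 10.9 (8.44). The SD of log2 CPM within antibody lots was 0.115 at Hist3h2a, smaller than at all but 5.17% of promoter peaks of like level. It was 0.225 at the Hist1h4k group and 0.211 at Hist1h2ba with Hist1h2aa, where 96.5% and 95.2% of promoter peaks of like level had a smaller SD. At Hist2h3c1 it was 0.246, with 46.4% smaller, since low counts spread more. The spread between libraries of 1 strain was not set against this spread.

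Between strains with antibody lot 2557645 (28) and lot 2746331 (32), 3 of 16 member peaks were called, all higher with lot 2557645, where 29.7% of all peaks were called higher and 56.4% in either direction. They were the pair Hist1h4f and Hist1h1d (0.31 ± 0.06, adjusted p = 7.95e-06), Hist3h2a (0.12, adjusted p = 0.000681) and Hist2h2aa1 (0.11, adjusted p = 0.00965), by edgeR's quasi-likelihood test with Benjamini-Hochberg adjustment. Medians at the first were 27.9 and 22.1 CPM, with overlapping ranges. The call of Hist2h2aa1 was lost without the 3 shallowest strains (0.07). The members' share of calls was below that of all peaks.

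**Figure D5:**
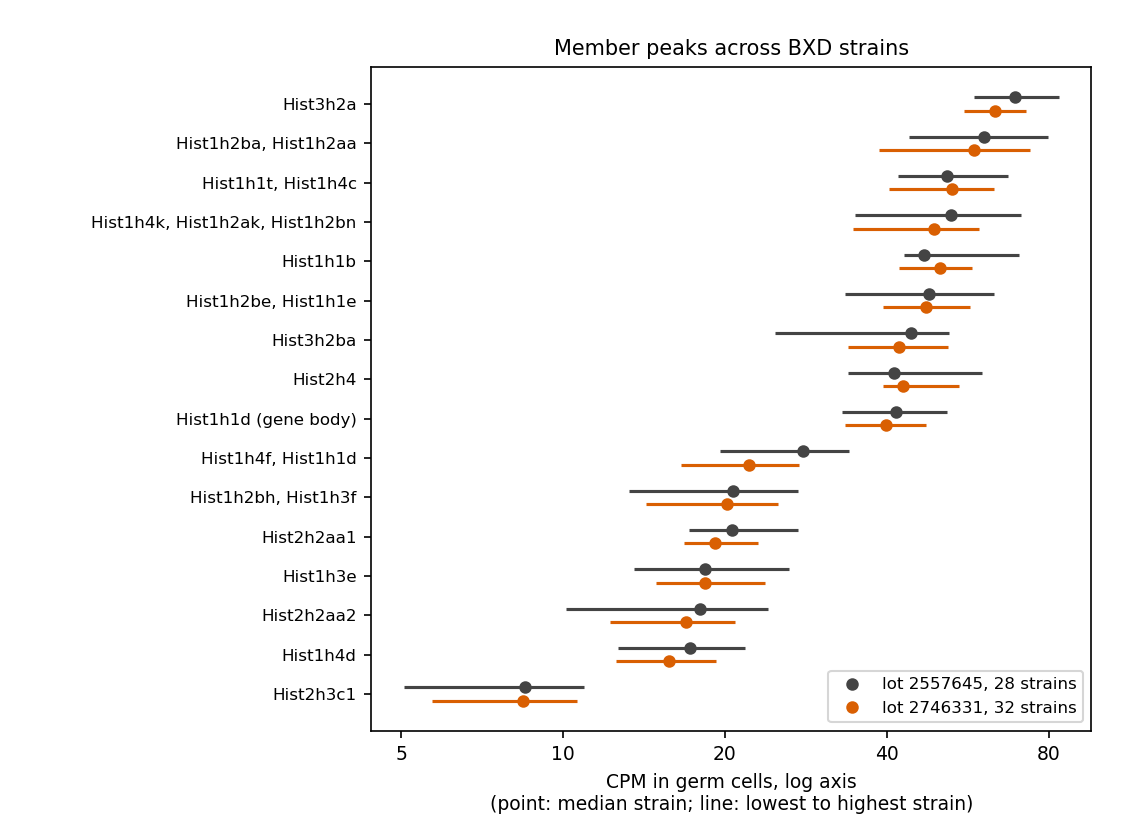
H3K4me3 in CPM (log axis) at the 16 member peaks in germ cells of BXD strains, as the median (point) and range (line) over 28 strains with antibody lot 2557645 and 32 with lot 2746331. The ranges of the lots overlap at every peak, and Hist3h2a has the narrowest spread (55.8 to 83.4 over all strains).

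Other genes of the histone supply pathway were counted in the same comparisons, to be read beside the share of all matched peaks called. Against hepatocytes 40.4% of all matched peaks were called higher and 38.9% lower in stem cells, and 38.7% and 38.4% in germ cells. Against cardiomyocytes the shares were 37.0% and 34.2% in stem cells, and 71.5% in either direction in germ cells. Of the S phase and proliferation genes with a matched promoter peak, 15 of 15 were higher in stem cells than in hepatocytes (median 0.72 against -0.08 for promoter peaks), led by the replication helicase genes Mcm6 (1.54) and Mcm5 (1.5). Of 8 matched with cardiomyocytes all 8 were higher (0.97 against 0.05), led by Ccna2 (1.66) and Tyms (1.37). In germ cells 13 of 18 were higher and 2 lower than in hepatocytes (Rrm2 1.4, Cdk1 1.20, Tk1 -1.86, Mcm3 -0.28), and 15 of 19 higher and 0 lower than in cardiomyocytes (Top2a 1.41, Ccnb1 1.15). Between stem and germ cells 6 of 10 were higher and 0 lower (Mcm6 0.83, Tyms 0.79). Of all matched peaks of this pair 35.7% were called higher and 34.2% lower. Hepatocytes and cardiomyocytes differed at 12 of 15, 6 in each direction (Pola1 0.68, Gins1 0.64, Cdk1 -1.04, Rrm2 -0.97). This was near the share of all matched peaks called for the pair, 78.9% (39.6% higher and 39.3% lower). The members' own counts were divided in direction between stem cells and hepatocytes, 5 and 5, where the S phase genes were not. Of the 5 lower, the Hist2h2ab group, Hist1h1e with Hist1h2be and Hist1h1t with Hist1h4c were near 0 per kb, with wider hepatocyte peaks. The S phase genes were not compared per kb, and the difference between the lists was not tested.

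Genes of histone mRNA transcription and 3′ end processing were divided between stem cells and hepatocytes. In stem cells 4 of 11 were higher (E2f1 1.45, Coil 1.16) and 4 lower (Lsm11 -0.30, Pou2f1 -0.30). These counts and those below are to be read beside the shares of all matched peaks, 40.4% higher and 38.9% lower for this pair. Against cardiomyocytes 7 of 10 were higher, among them Cstf2 (0.94) and Casp8ap2 (0.74), and 1, Lsm11 (-0.34), was lower. Of all matched peaks of that pair 37.0% were called higher and 34.2% lower. Npat, the activator of the clusters, was higher by 0.60 in hepatocytes than in cardiomyocytes, where 8 of 15 rose and 4 fell. Between these tissues 39.6% of all matched peaks were called higher and 39.3% lower. Of the histone chaperones 5 of 8 were higher and 1 lower in stem cells than in hepatocytes (Hat1 1.52, Chaf1b 0.68, Ubn1 -0.48), and 5 and 1 of 8 than in cardiomyocytes (Rbbp4 0.98, Asf1b 0.85, Ubn1 -0.29). Of replacement and variant histones 6 of 10 were higher and 3 lower in stem cells than in cardiomyocytes (H2afx 1.85, H2afz 0.82, H1f0 -0.65, H2afy -0.58).

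Between founders the same lists had few called genes in each cell type, to be read beside the share of promoter peaks called. In stem cells (12.5% of promoter peaks) 1 of 23 S phase genes was higher in B6 (Pola1 0.35) and 0 lower, and of the 16 processing genes Eri1 was higher (0.32) and Coil lower (-0.48). In germ cells (4.40%) 2 of 25 S phase genes, Pcna (-1.0) and Aurkb (-0.64), and 1 of 11 variant genes, H2afb3 (-2.27), were lower in B6. In cardiomyocytes (8.66%) 3 of 11 variant genes were higher, among them H2afx (0.51) and H2afj, through the peak shared with Hist4h4 (1.17). There 1 of 14 chaperone genes, Nasp (0.66), was higher, and of 24 S phase genes Tk1 was higher (1.18) and Aurkb lower (-0.51). In hepatocytes (7.37%) Nasp alone was called (0.37), 1 of 14 chaperone genes.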

How the data were processed

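H3K4me3 ChIP-seq was analysed in 123 libraries, and 12 input libraries were not analysed here. The values are counts of reads per peak, whole numbers without normalisation as deposited by the authors, 1 table per cell type, with 0 columns left unmapped. The deposited peak lists give mm10 coordinates. The submitters' processing notes name MACS 1.4.2, BWA 0.5.10 and CASAVA 1.8 as tools, and the sources used here do not state how reads were filtered, placed on strain genomes or counted.

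Peaks within 1 kb of a GENCODE M21 start site were assigned to genes. The members and all gene lists were chosen with earlier results of these data known. Counts were tested with edgeR 4.0.16 in R 4.3.3 (filterByExpr by group, TMM, robust glmQLFit and glmQLFTest), and a peak was called at an adjusted p (Benjamini-Hochberg, over all peaks) under 0.05. DESeq2 1.42.0 was an alternative. All strains of a cell type shared 1 fit. The F1 was compared with the mean log2 of its parents, and antibody lots on strain totals. For cell types, peaks were matched at 50% reciprocal overlap with bedtools 2.31.1, and founders were fitted with strain as a covariate. CPM used TMM library sizes. Members passing the low count filter were all those with a listed peak (16 germ cell, 18 stem cell, 15 hepatocyte and 19 cardiomyocyte peaks). The tests were checked on simulated counts with known changes.

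Replicate numbers of hepatocytes and cardiomyocytes did not clearly pair libraries and were used only in an alternative. Germ cell B6 columns carry none of the label numbers. Named were members with a known role of their own, the 5 highest and lowest members per cell type, every called member, or the 3 smallest p-values where none was called, and of the other lists the 2 called genes with the largest difference in each direction. Alternatives were another scaling and tool, no filter, a 500 bp window, peaks found on both genomes only, 20% overlap, single founders, BXD lines in place of founders, unsummed stem cell libraries, the replicate block and leaving out each library.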

Additional observations from a re-analysis of the deposited data

Results flagged for a closer look

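At 3 member peaks matched in all 4 cell types the B6 minus D2 difference depended on the cell type, by the F test of the interaction in edgeR's quasi-likelihood fit with Benjamini-Hochberg adjustment. The adjusted p was 0.00194 at Hist1h2ak, Hist1h2bn and Hist1h4k, where D2 was below B6 without overlap in hepatocytes only. It was 0.00279 at Hist3h2a, where all B6 libraries lay below D2 in stem cells and above D2 in hepatocytes, and 0.0144 at Hist1h1e with Hist1h2be, where B6 was above D2 in germ cells and below it in stem cells. At the last of these B6 ranged over 171 to 238 CPM and D2 over 146 to 170 in germ cells, against 243 to 259 and 284 to 326 in stem cells. Germ cells differ from the others in kit and antibody lot, whose part was not tested. Among 52 groups of 4 to 10 samples at member peaks 0 held a library apart from the rest, where chance gives about 1 in 20. Groups of 3 were too small for this check, so it covers no B6 or D2 group and no hepatocyte or cardiomyocyte group.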

How the results depend on the processing

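The founder differences of Hist2h3c2 in 3 cell types, of Hist4h4 in cardiomyocytes, of the Hist1h4k group in hepatocytes and of the outer Hist1h3e peak in stem cells kept direction and call in every alternative that kept the peak, as did that of Hist2h3c1 in stem cells. The 500 bp window leaves out the Hist2h3c and outer Hist1h3e peaks. A tally was made over the called member peaks and, where none was called, the 3 with the smallest p-values. Over these peaks and the alternatives 1052 values kept direction and side of the threshold, 92 lost the call, 3 gained it and 4 turned. Calls gained by other member peaks are not in this tally. Without D2 line 173, for example, the called stem cell members between founders rose from 9 to 15.

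Counts of called members that moved were 1 with DESeq2 for germ cells B6 minus D2, 4 of 6 tested with peaks found on both genomes only for stem cells minus cardiomyocytes (8 of 12 otherwise), and 1 of 1 with such peaks for the interaction of strain and cell type (3 of 5 otherwise), where fewer members were tested. At 20% overlap 7 were called for germ cells minus cardiomyocytes and 11 for stem cells minus germ cells, where more peaks were matched. With BXD75 and BXD87 in place of the founders 4 values turned: stem cells minus hepatocytes at Hist1h1t with Hist1h4c (0.061), stem cells minus cardiomyocytes at the Hist2h2aa pair (-0.072), and hepatocytes minus cardiomyocytes at Hist1h4d (-0.15) and at Hist1h1e with Hist1h2be (-0.27). The cause was not tested.

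Leaving out 1 library gave 0 to 3 called members for germ cells B6 minus D2, 2 to 4 for hepatocytes B6 minus D2, 2 to 4 for cardiomyocytes B6 minus D2, 3 to 15 for stem cells B6 minus D2 and 2 to 4 for BXD75 minus BXD87 stem cells. For the cell type pairs it gave 10 to 11 (stem cells and hepatocytes), 6 to 9 (stem cells and cardiomyocytes), 4 to 5 (germ cells and hepatocytes) and 4 to 5 (germ cells and cardiomyocytes), and the other counts did not move.

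With the replicate block 4 members were called in hepatocytes and 2 in cardiomyocytes between B6 and D2, where the Hist1h2bl group lost its call, 0 in either between BXD75 and BXD87, and 6 between hepatocytes and cardiomyocytes. The numbers gave no clear pairing. Same-numbered libraries correlated between -0.478 and 0.780 in hepatocytes and between -0.835 and 0.772 in cardiomyocytes. Their medians were 0.080 and -0.059, against -0.028 and 0.055 for other pairs. In hepatocytes 7 of 12 libraries correlated best with their own number, and in cardiomyocytes 3 of 12. Low counts limit Hist2h3c1 in germ cells (4.84 to 9.14 CPM) and the shallow D2 cardiomyocytes.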
